A study of Homo sapiens with 12 samples.

Results

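Immediate early genes are switched on within minutes of a stimulus such as serum, a growth factor or a mechanical disturbance, without new protein synthesis, and their transcripts are short-lived. The FOS proteins (FOS, FOSB, FOSL1, FOSL2) pair with the JUN proteins (JUN, JUNB, JUND) to form AP-1, a transcription factor that binds the same DNA site in many target genes. EGR1 and EGR3 are zinc finger transcription factors, and IER2 is a small nuclear protein of the same early response. In colorectal cancer cells these genes lie downstream of the RAS and MAP kinase pathway, and JUNB is also a known early target of TGF-β signaling.

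The 10 genes FOS, FOSB, FOSL1, FOSL2, JUN, JUNB, JUND, EGR1, EGR3 and IER2 were taken by name from the 25733 genes of the deposited expression table, where each had 1 entry. The RNA came from HCT116, a long-established colorectal cancer line, with 3 libraries in each of 4 groups. These were control, TGF-β, NH4Cl (which supplies ammonia) and the combination, written NH4Cl-TGF-β. By the study's methods NH4Cl was present at 10 mM during 24 h, and the TGF-β groups had 23 h of vehicle or NH4Cl before 200 pM TGF-β was added for 1 h. The labels name the agents without doses or times, and no source used here says whether control and NH4Cl cells also received an addition at the last hour. A comparison with TGF-β therefore reads the last hour, handling included, whereas a comparison with NH4Cl reads a change over 24 h between groups that are alike in whether TGF-β was added. All 4 groups share the line. The methods give a medium with serum for its culture, and do not say whether serum was present during these treatments.

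Levels are FPKM, reads scaled by exon length and by a total per library, so they can be set side by side between genes. That total was 0.964 to 0.969 times the reads on genes in libraries with replicate number 3. In the other libraries it was 1.02 to 1.03 times those reads. It is therefore not the read count alone, and how it was set is not given. Reads on genes numbered 14807630 to 18191998 per library (median 15484798), and a single member had between 71 (EGR3) and 8236 (EGR1) reads in a library. All 10 genes had a mean of at least 1 FPKM over the 12 libraries and were tested. The cells had the expected epithelial character by their markers: 10 of 10 colorectal epithelial markers had a mean of at least 1 FPKM, led by KRT18 at 876 FPKM. Of 12 markers of blood, stromal, vessel, liver, glial and muscle cells, 11 were matched and 3 reached a mean of 1 FPKM, with VWF highest at 3.01 FPKM. Neither the labels nor the methods say that libraries of a group came from separate cultures, so the p-values measure the spread between these libraries, which may be technical.

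Libraries with replicate number 3 stood apart. Mitochondrial genes took 4.50% to 5.12% of their reads and 2.46% to 3.18% in the other 8 libraries, and the summed FPKM of the epithelial markers was 3012 to 3534 in them and at most 2604 in the others. The summed FPKM of the 11 matched markers of other cell types was at least 8.16 in replicate 3 and at most 7.40 in replicates 1 and 2. That of 12 housekeeping genes was at least 4375.5 in replicate 3 and at most 4276.2 in the others. Over all genes the summed FPKM was 301728 to 305984 in replicate 3 and 262958 to 278920 in the others. Higher sums in replicate 3 were therefore not particular to cell type markers. The part of these differences in the results was not tested. Same-numbered libraries of different groups deviated together, so the replicate number was used as a block in a second model. For numbers 1 and 2 this could follow from replicate 3 standing apart, and their pairing was not tested. Both models are given where they differ. The values without replicate 3 are also given.

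The levels of the genes in untreated cells ranged widely. In control cells JUND had the highest mean level (133 FPKM ± 16.7, SD, n = 3), followed by EGR1 (116 ± 11.9) and JUNB (95.01 ± 13.3). JUN followed at 55.8 ± 7.40 FPKM, then IER2 at 40.1 ± 4.62, FOSL1 at 37.4 ± 3.02 and FOS at 32.7 ± 8.90. FOSL2 had 22.4 ± 10.1 FPKM, FOSB 4.05 ± 2.00 and EGR3 1.67 ± 0.899. The control libraries of JUND and EGR1 overlapped, as did those of EGR1 and JUNB and those of IER2, FOSL1 and FOS, whereas EGR3 was the lowest gene in every library. The JUN family summed to 283 FPKM ± 36.2 and the FOS family to 96.6 ± 21.3 in control cells. JUND made up 46.8% ± 1.54 of the JUN family sum, and FOSL1, a FOS family member without the strong activation domain of FOS, made up 39.6% ± 6.37 of the FOS family sum.

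**Figure D1:**
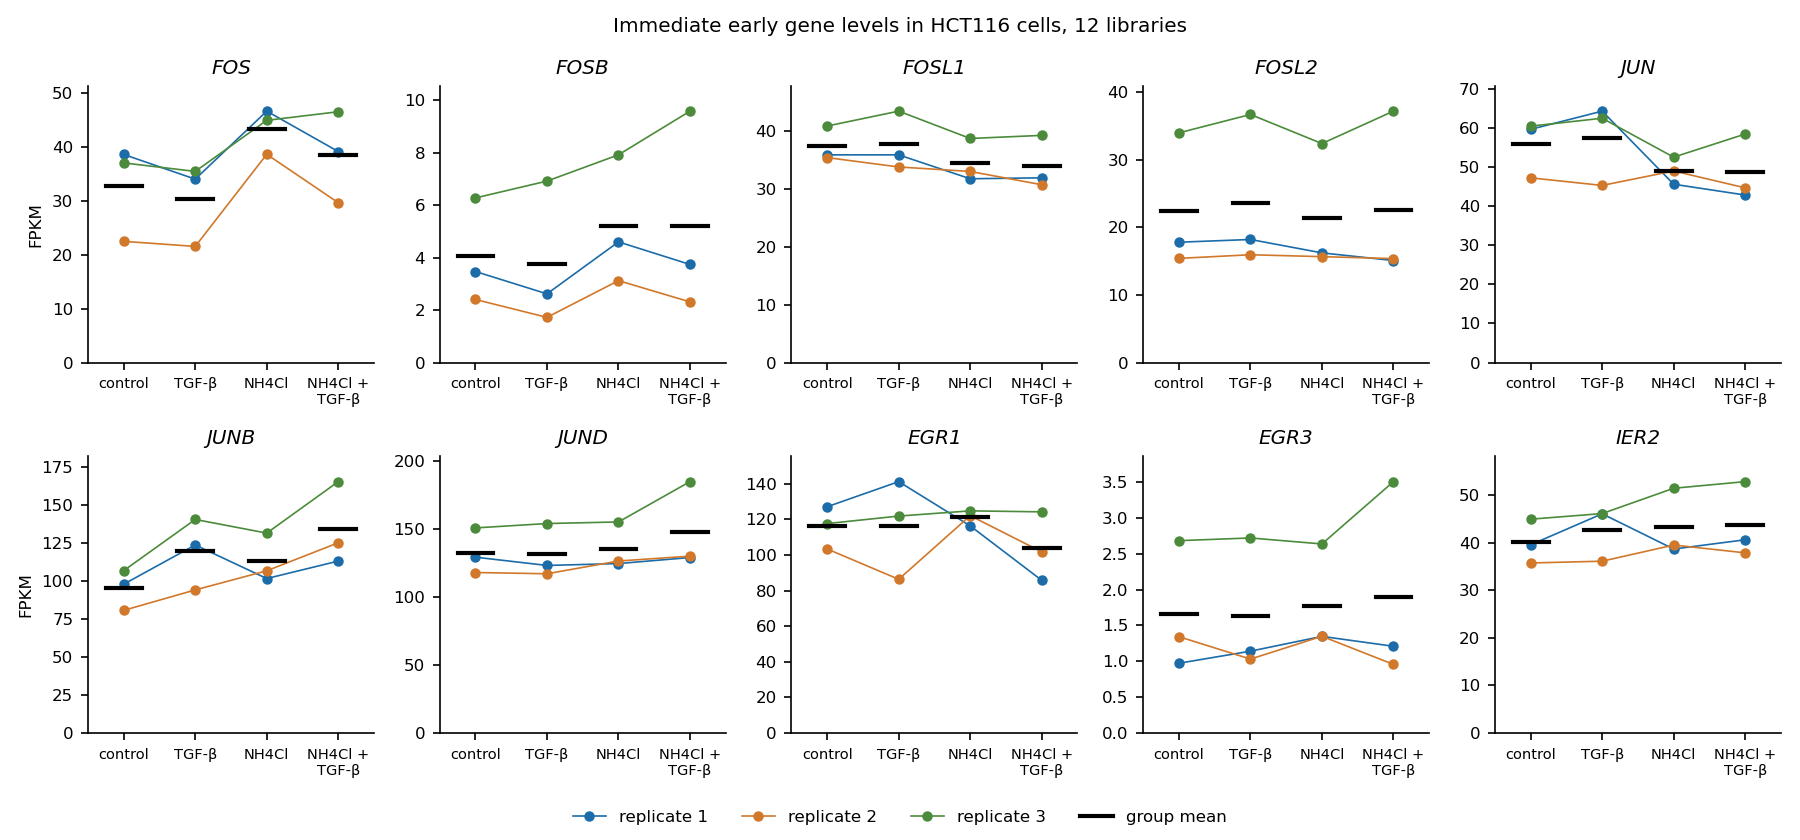
Level of each of the 10 genes (FPKM, axis from 0) in the 4 groups, with 1 point per library, lines joining libraries of the same replicate number and black bars for group means of 3 libraries. FOSB, FOSL2 and EGR3 are highest in replicate 3 of every group, and FOS lies higher with NH4Cl in each of the 3 replicate lines.

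The genes differ in length and in exon number. In GENCODE 29 on GRCh38 they span 1820 to 24865 bases, and all 10 are shorter than the median of 30900 bases over the 10715 protein-coding genes tested. JUN (chr1:58780788-58784327, minus strand, ENSG00000177606), JUNB (chr19:12791496-12793315, plus strand, ENSG00000171223) and JUND (chr19:18279760-18281622, minus strand, ENSG00000130522) consist of 1 exon, which holds for 2.27% of those protein-coding genes. FOS lies at chr14:75278774-75282230 on the plus strand (ENSG00000170345), FOSB at chr19:45467995-45475179 on the plus strand (ENSG00000125740) and FOSL1 at chr11:65892049-65900573 on the minus strand (ENSG00000175592). EGR1 lies at chr5:138465490-138469315 on the plus strand (ENSG00000120738). FOSL2 (ENSG00000075426), EGR3 (ENSG00000179388) and IER2 (ENSG00000160888) complete the set. The annotated spans of FOSB, FOSL2, JUNB and EGR3 overlap ERCC1, FLJ31356, HOOK2 and AC055854.1, respectively. FOSL2 also overlaps AC104695.3 and IER2 overlaps AC011446.2, which the expression table does not list by these names. Whether reads were counted by strand is not given, so their values carry that uncertainty.

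The 250 bases before the start were available for 8 of the 10 genes in the RefSeq promoter table (GRCh38.p14), all but FOSL1 and EGR3, and were searched on both strands. The letters TGACGT, the first part of the cyclic AMP response element TGACGTCA that CREB proteins bind, occurred in 5 of the 8 (FOS, FOSB, FOSL2, JUND and EGR1), compared with 7.10% of all 35116 promoters of this length. The full TGACGTCA, which contains it, occurred in JUND and in 1.65% of promoters. Within this window the CArG box, the site of serum response factor, occurred in EGR1 and in 1.16% of promoters. The EGR site GCGNGGGCG also occurred in EGR1, and in 8.41% of promoters, and the AP-1 site TGANTCA occurred in none of the 8 and in 6.57% of promoters. In FOS and FOSB the TGACGT letters began 64 and 60 bases before the start of the RefSeq promoter table. A match also began 66 bases before the start in FOSL2 and 67 in EGR1. Neither FOSL2 nor EGR1 was called with NH4Cl in either model of all libraries. For FOS the RefSeq start lies inside the GENCODE span given above, so that the printed FOS stretch crosses the GENCODE start. The stretches around the matches are shown for FOS and FOSB, which moved together with NH4Cl, and for JUND and EGR1, the most abundant genes with a match. Capitals mark TGACGT or its reverse complement, the full element in JUND, and in EGR1 also the EGR site and the CArG boxes. Positions are chr14:75278749-75278784 (plus) for FOS, chr19:45467921-45467956 (plus) for FOSB, chr19:18281689-18281837 (minus) for JUND and chr5:138465266-138465432 (plus) for EGR1.
FOS: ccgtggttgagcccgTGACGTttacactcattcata
FOSB: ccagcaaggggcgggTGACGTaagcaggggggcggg
JUND: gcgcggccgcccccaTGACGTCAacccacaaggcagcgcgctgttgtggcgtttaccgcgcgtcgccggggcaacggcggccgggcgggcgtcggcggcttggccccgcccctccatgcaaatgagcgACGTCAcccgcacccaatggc
EGR1: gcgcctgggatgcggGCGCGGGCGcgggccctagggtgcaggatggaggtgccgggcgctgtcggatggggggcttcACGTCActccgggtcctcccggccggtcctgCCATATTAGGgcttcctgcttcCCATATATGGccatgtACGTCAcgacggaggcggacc
These matches describe letters in a window and are no measure of factor binding in these cells. Bases further upstream were not searched, so a gene without a match may have the site there.

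The first comparison asked what NH4Cl did over 24 h, averaged over cells with and without TGF-β. FOS, the founding member of the family, had 38.6, 22.5 and 37.1 FPKM in control replicates 1, 2 and 3, and 46.7, 38.7 and 45.0 FPKM in the NH4Cl replicates. With TGF-β it had 34.1, 21.6 and 35.5 FPKM without NH4Cl and 39.2, 29.7 and 46.6 FPKM with it. FOS was higher with NH4Cl in 6 of 6 pairs of the same replicate number. The libraries with NH4Cl alone lay above the control libraries by a narrow margin (lowest 38.68 FPKM, highest control 38.65 FPKM), whereas the TGF-β groups overlapped. The share of all genes without such overlap was not computed. Replicate 2 was the low library in all 4 groups. The log2 fold change of FOS was 0.39 on the log2(FPKM + 1) scale, a factor of 1.31.

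FOSB, a close relative of FOS at a lower level, had 3.47, 2.40 and 6.27 FPKM in control cells and 4.596, 3.12 and 7.91 FPKM with NH4Cl. In the TGF-β groups it had 2.62, 1.72 and 6.91 FPKM without NH4Cl and 3.74, 2.31 and 9.58 FPKM with it. It was higher in 6 of 6 pairs (log2 fold change 0.33), although the groups overlapped, and replicate 3 was the highest library of each group. Without the block, leaving out replicate 3 of NH4Cl-TGF-β gave 0.09 and leaving out replicate 3 of TGF-β gave 0.55, whereas with the block the range was 0.27 to 0.39. FOSL1 went the other way. It had 35.9, 35.4 and 40.9 FPKM in control cells against 31.8, 33.1 and 38.8 with NH4Cl, and 35.9, 33.8 and 43.5 FPKM with TGF-β against 32.0, 30.8 and 39.3 with both. FOSL1 was lower in 6 of 6 pairs, by a smaller amount (log2 fold change -0.13). Without the block this was -0.079 without replicate 3 of TGF-β and -0.18 without replicate 3 of NH4Cl-TGF-β. With the block it ran from -0.15 to -0.12 with 1 library left out.

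In the limma model without the block, 0 of the 10 genes passed an adjusted p of 0.05 with NH4Cl, compared with 6.14% of the 12341 genes tested, and FOS was the 1 member with an unadjusted p under 0.05 (adjusted p = 0.232), where 2574 of all genes were under it. With the block 6 members and 5264 of all genes were under it. In the model blocked by replicate number, 4 of the 10 passed, where 31.0% of all genes did. By direction, 3 rose (16.1% of all genes) and 1 fell (15.0% of all genes), so the share of members is near that of the whole table. FOS rose (SE 0.067, adjusted p = 0.0022), FOSB rose (SE 0.079, adjusted p = 0.011), JUNB rose (log2 fold change 0.21, SE 0.065, adjusted p = 0.034, higher in 5 of 6 pairs with the other at -0.13) and FOSL1 fell (SE 0.028, adjusted p = 0.0060). The call of FOS held with each library or replicate number left out of the blocked model, with adjusted p-values of 0.0013 to 0.019. FOSB and FOSL1 lost theirs without replicate number 1 (adjusted p = 0.091 and 0.093), and that of JUNB ended without any single library of replicates 2 or 3 (adjusted p = 0.057 to 0.091) and without either replicate number (adjusted p = 0.30 and 0.19). The log2 fold change of JUNB was 0.33 without replicate number 1, 0.11 without number 2 and 0.18 without number 3.

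The other JUN members gave no call with all libraries in the fit. JUN, the main AP-1 partner of FOS, had 59.6, 47.2 and 60.4 FPKM in control cells and 45.6, 49.0 and 52.5 with NH4Cl, and 64.3, 45.3 and 62.4 FPKM with TGF-β and 42.8, 44.7 and 58.4 with both. It was lower in 5 of 6 pairs, with a log2 fold change of -0.20 (adjusted p = 0.065 with the block). In the blocked model this was -0.066 without replicate number 1 and -0.23 without number 3. Without number 2 it was -0.31 and passed (adjusted p = 0.034). JUND, whose level is known to vary less with stimulation, had a log2 fold change of 0.09 (adjusted p = 0.071 with the block). FOSL2, EGR1, EGR3 and IER2 were higher in 2, 4, 4 and 4 of 6 pairs, and their adjusted p-values with the block were 0.21, 0.79, 0.44 and 0.36. Over all 10 genes the median log2 fold change with NH4Cl was 0.07, beside -0.00061 over all genes tested.

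**Figure D2:**
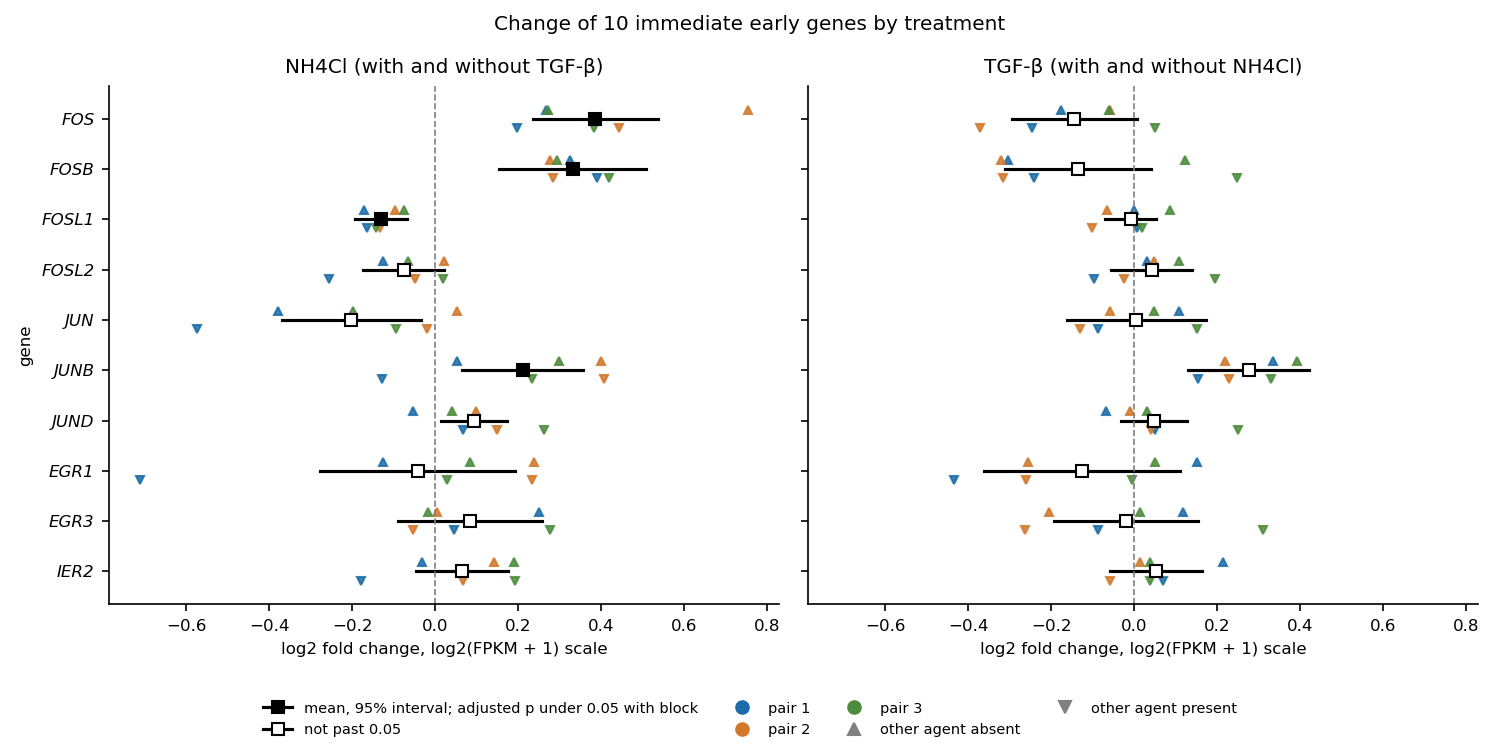
Log2 fold change of the 10 genes (log2(FPKM + 1) scale) with NH4Cl (left) and with TGF-β (right), as squares with 95% intervals from the model with the replicate block, filled where the adjusted p is under 0.05, and as triangles for each of the 6 pairs of the same replicate number. FOS and FOSB lie to the right of 0 with NH4Cl in 6 of 6 pairs and FOSL1 to the left in 6 of 6, and no gene is filled on the TGF-β side.

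Taken group by group, NH4Cl against control gave 0 of 10 calls without the block (0.381% of all genes) and 1 of 10 with it (13.6% of all genes). That gene was FOS, with a log2 fold change of 0.43 (SE 0.095, adjusted p = 0.017, higher in 3 of 3 pairs). The call ended without replicate 2 or 3 of control or replicate 2 of NH4Cl (adjusted p = 0.053 to 0.080), and without replicate number 1 or 2 (adjusted p = 0.072 and 0.14). JUNB and FOSL1 had log2 fold changes of 0.25 and -0.12 and adjusted p-values of 0.10 and 0.082 with the block. At an unadjusted p under 0.05 in limma, 0 members passed without the block and 4 with it, where 1333 and 3585 of the 12341 genes did.

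In cells that also received TGF-β, NH4Cl-TGF-β against TGF-β gave 0 of 10 calls without the block (1.03% of all genes) and 3 of 10 with it (18.8% of all genes). At an unadjusted p under 0.05 in limma, 0 members passed without the block (1642 of all genes) and 4 with it (4124 of all genes). FOS rose by a log2 fold change of 0.34 (adjusted p = 0.034), FOSB rose by 0.36 (adjusted p = 0.048) and FOSL1 fell (log2 fold change -0.15, adjusted p = 0.029). Each was the same way in 3 of 3 pairs. None of the 3 calls held when replicate number 1 or 2 was left out of the blocked model, and those of FOS and FOSL1 ended without number 3 as well. The call of FOS ended without any TGF-β library or replicate 2 or 3 of NH4Cl-TGF-β (adjusted p = 0.061 to 0.13), and that of FOSL1 without replicate 1 or 3 of TGF-β or replicate 1 or 2 of NH4Cl-TGF-β (adjusted p = 0.080 to 0.11). That of FOSB ended without replicate 1 or 2 of control, TGF-β or NH4Cl or replicate 1 or 3 of NH4Cl-TGF-β (adjusted p = 0.056 to 0.17), and after scaling libraries to a common sum or centring them (adjusted p = 0.056 and 0.055). Without the block, the log2 fold change of FOSB turned to -0.11 when replicate 3 of NH4Cl-TGF-β was left out. These comparisons and the averaged one share libraries.

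TGF-β for 1 h gave no call among the 10 genes. Averaged over NH4Cl, 0 of 10 passed without the block (0% of all genes) and 0 of 10 with it (0.00810%, which is 1 gene). That 1 gene was ID1, an inhibitor of differentiation known to respond to TGF-β family ligands, which is named here after its values were seen. At an unadjusted p under 0.05 in limma, 0 members passed without the block and 1 with it, and of all genes 134 and 687 passed. The gene was JUNB. With the block, the 95% intervals of the 10 log2 fold changes together ran from -0.36 to 0.42.

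JUNB had 97.8, 80.6 and 107 FPKM in control cells and 124, 94.0 and 140 FPKM after TGF-β. With NH4Cl it had 101, 107 and 131 FPKM, and with both agents 113, 125 and 165 FPKM. It was higher with TGF-β in 6 of 6 pairs, and the groups overlapped. The averaged log2 fold change was 0.28 with a 95% interval of 0.13 to 0.42 in the blocked model, and its unadjusted p was 0.0018, but its adjusted p was 0.66. In size this change exceeded that of 98.8% of the genes tested.

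FOS and EGR1, the members best known for a burst within the first hour of a stimulus, were not higher after the addition. FOS was lower with TGF-β in 5 of 6 pairs (log2 fold change -0.14, adjusted p = 0.89 with the block). EGR1 had 127, 103 and 118 FPKM in control cells, 141, 86.3 and 122 with TGF-β, 116, 122 and 125 with NH4Cl, and 85.8, 102 and 124 with both. Its averaged log2 fold change with TGF-β was -0.13 (95% interval -0.36 to 0.11, adjusted p = 0.94 with the block), and it was lower in 4 of 6 pairs. A burst that had risen and decayed within the hour cannot be told apart from none in samples of 1 time.

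TGF-β against control gave 0 of 10 calls in both models, beside 0% of all genes without the block and 0.00810% with it. JUNB had a log2 fold change of 0.32 there (3 of 3 pairs, adjusted p = 1.00 with the block). NH4Cl-TGF-β against NH4Cl likewise gave 0 of 10 in both models, beside 0% and 0.00810%. JUNB had 0.24 there (3 of 3 pairs, adjusted p = 0.67 with the block), and EGR1 -0.23 (lower in 3 of 3 pairs, adjusted p = 0.78 with the block). At an unadjusted p under 0.05, 0 members passed in either comparison without the block, and with it 1 passed in the former and 2 in the latter. Over all genes the counts were 103 and 165 unblocked and 422 and 879 blocked. The test of the difference between these effects, the interaction of NH4Cl and TGF-β, gave 0 of 10 calls in both models, beside 0% of all genes in each, and 0 members with an unadjusted p under 0.05, where 115 of all genes were without the block and 537 with it. For EGR1 the interaction was -0.22 with a 95% interval of -0.69 to 0.26 in the blocked model, so it was estimated loosely.

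Cells with both agents were also compared with control, where 0 of 10 passed without the block (0.948% of all genes) and 2 of 10 with it (18.4% of all genes). JUNB was the 1 member with an unadjusted p under 0.05 without the block (1618 of all genes), and with it there were 4 (4053 of all genes). JUNB rose from 95.01 ± 13.3 to 134 ± 27.3 FPKM (log2 fold change 0.49, SE 0.092, adjusted p = 0.0065 with the block and 0.27 without). Its libraries in the 2 groups did not overlap (highest control 107 FPKM, lowest with both agents 113 FPKM). The share of all genes without such overlap was not computed. The call of JUNB held with each library left out of the blocked model, and ended without replicate number 2 or 3 (adjusted p = 0.052 and 0.082). FOSL1 fell from 37.4 ± 3.02 to 34.0 ± 4.62 FPKM (log2 fold change -0.14, adjusted p = 0.035 with the block), and its call ended without replicate 1 or 2 of either group (adjusted p = 0.089 to 0.14), without replicate number 1 or 2 (adjusted p = 0.22 and 0.26) and after scaling libraries to a common sum (adjusted p = 0.055).

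Ratios between family members are given without a test. The ratio of JUNB to JUN in FPKM was 1.64, 1.71 and 1.77 in control cells, 1.92, 2.08 and 2.25 with TGF-β, 2.23, 2.18 and 2.501 with NH4Cl, and 2.64, 2.80 and 2.83 with both. The control libraries were below all others and the libraries with both agents above all others, while the TGF-β and NH4Cl groups overlapped. The ratio of FOS to FOSL1 was 1.08, 0.635 and 0.906 in control cells, 0.948, 0.637 and 0.816 with TGF-β, 1.47, 1.17 and 1.16 with NH4Cl, and 1.23, 0.965 and 1.19 with both. The NH4Cl libraries were above the control libraries, and those with both agents overlapped with control. Both ratios were chosen after the values were seen and are given as a description.

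**Figure D3:**
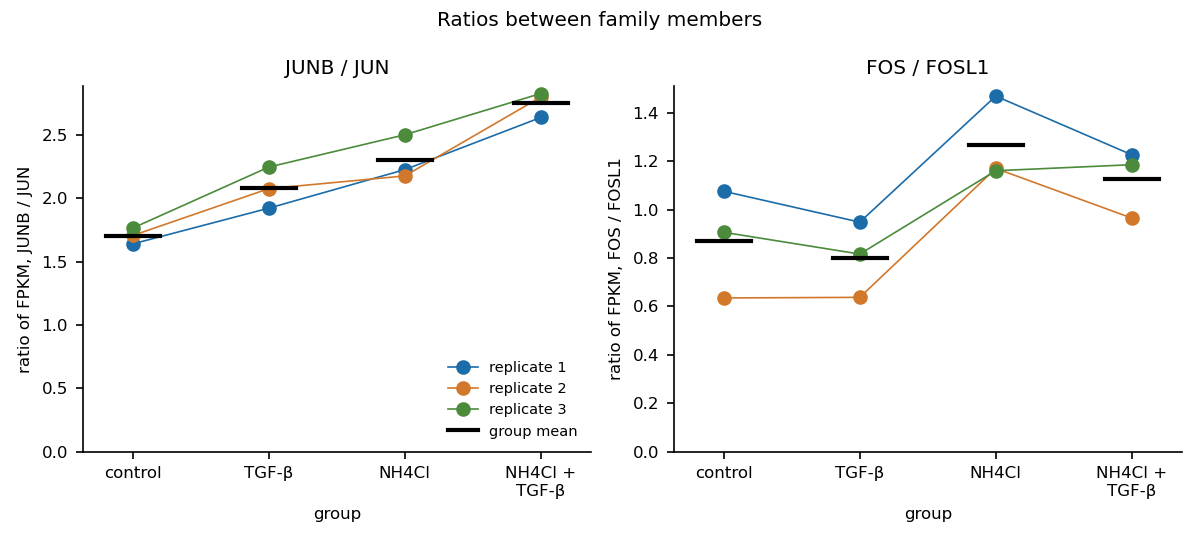
Ratio of JUNB to JUN (left) and of FOS to FOSL1 (right) in FPKM in each of the 12 libraries, with lines joining libraries of the same replicate number and black bars for group means. The JUNB to JUN ratio is lowest in the control libraries (1.64 to 1.77) and highest in the libraries with both agents (2.64 to 2.83).

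The difference between replicate 3 and the others was larger than the averaged difference with either agent for every member but FOS in unscaled FPKM, and for FOSB, FOSL2, EGR3, JUND and IER2 after scaling to a common sum. FOSB, FOSL2 and EGR3 had mean differences of 1.14, 1.07 and 0.84 on the log2(FPKM + 1) scale between replicate 3 and the mean of replicates 1 and 2, where the median over all genes tested was -0.0088. FOSL2, an AP-1 member often high in epithelial cells, had 32.4 to 37.2 FPKM in the 4 libraries of replicate 3 and 15.1 to 18.2 FPKM in the other 8. EGR3 had 2.64 to 3.51 FPKM in replicate 3 and 0.957 to 1.35 in the others. In unscaled FPKM all 10 genes were higher in replicate 3 by this difference in each of the 4 groups. Their mean differences lay above those of 74.7% (EGR1) to 99.5% (FOSB) of the genes tested. For 5 members (FOSB, FOSL1, FOSL2, JUND and EGR3) every library of replicate 3 lay above every other library, which held for 15.8% of all genes tested. Summed FPKM was 301728 to 305984 in replicate 3 and 262958 to 278920 in the others. After this scaling, 7 genes were higher in each group, EGR1 had a mean difference of -0.0057, and FOSB, FOSL2 and EGR3 (1.00, 0.90 and 0.73) were the 3 without overlap. A share of all genes tested is given only for the 5 members without overlap in unscaled FPKM. The count of members higher in each group and the counts after scaling stand without one. With replicate 3 left out of the blocked model, the changes with NH4Cl were 0.42 for FOS (adjusted p = 0.013), 0.32 for FOSB (adjusted p = 0.0054), -0.14 for FOSL1 (adjusted p = 0.019) and 0.18 for JUNB (adjusted p = 0.19).

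**Figure D4:**
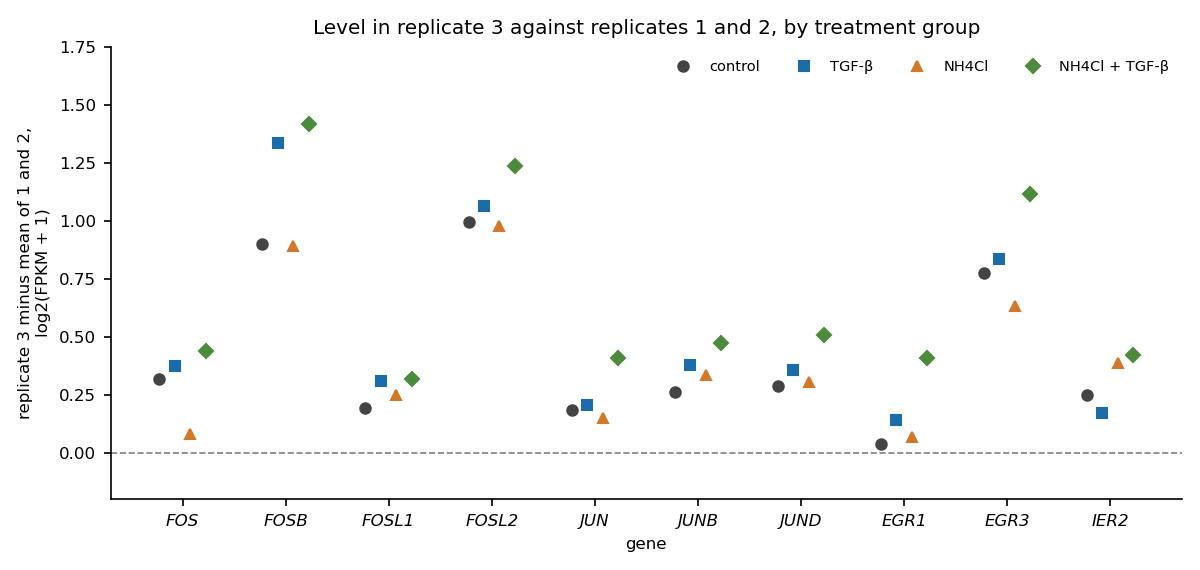
Difference between replicate 3 and the mean of replicates 1 and 2 on the log2(FPKM + 1) scale for each of the 10 genes in each of the 4 groups, in FPKM without further scaling, with 1 point per group. All 40 points lie above 0, and those of FOSB, FOSL2 and EGR3 lie between 0.63 and 1.42.

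Among other genes of the early response, changes with NH4Cl went both ways. The counts of this and the other lists stand beside 31.0% of all genes called for NH4Cl with the block (16.1% higher, 15.0% lower) and 6.14% without it. Of 37 other immediate early genes tested, 8 rose and 7 fell with the block, and 1 of each passed without it: NR4A2, a nuclear receptor (log2 fold change 0.25, adjusted p = 0.041 without the block), and KLF10, a TGF-β inducible zinc finger gene (log2 fold change -0.23, adjusted p = 0.028 without the block), both named after their values were seen. The largest changes were those of the clock and hypoxia regulator BHLHE40 (0.57, adjusted p = 1.2e-05 with the block), the clock gene PER1 (0.48, adjusted p = 0.00013) and NFKBIZ, a regulator of NF-κB targets (-0.38, adjusted p = 0.00055). For TGF-β, RHOB and GADD45B had the largest differences (0.25 and 0.18, each higher in 6 of 6 pairs), and with the block their adjusted p-values were 0.50 and 0.74. No gene of any list passed for TGF-β in either model.

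The inputs to these genes and their feedback regulators were read in the same way. Of 11 serum response and cyclic AMP response factors, 1 rose with NH4Cl and 4 fell with the block (all genes 16.1% and 15.0%), and 0 passed without it (all genes 6.14%). They include the SRF cofactors MRTFB (-0.17, adjusted p = 0.024 with the block) and ELK4 (0.16, adjusted p = 0.014), and CREB1 (-0.16, adjusted p = 0.0496). Of 15 MAP kinase inputs tested, 2 rose and 1 fell with the block: the kinases MAP2K1 (0.20, adjusted p = 0.00034) and MAP2K2 (0.10, adjusted p = 0.031), and the receptor EGFR, which fell in both models (-0.30, adjusted p = 0.013 without the block) at a level of 1.34 FPKM. Of 20 MAP kinase feedback genes, 7 rose and 3 fell with the block (all genes 16.1% and 15.0%). The largest changes were those of the phosphatase genes DUSP5 (0.43, adjusted p = 0.00014 with the block), DUSP1 (0.34, adjusted p = 0.00029) and DUSP16 (0.30, adjusted p = 0.045 without the block).

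AP-1 partners and targets gave the following counts. Of 9 other AP-1 and MAF partners tested, only MAFG passed with the block (0.18, adjusted p = 0.0036), and 0 passed without it, while BATF had 0.25 with NH4Cl (adjusted p = 0.073 with the block) and 0.29 with TGF-β (adjusted p = 0.82), and MAFF -0.13 with NH4Cl (adjusted p = 0.080). Of 4 EGR partners, 0 passed in either model. Of 26 AP-1 target genes tested of 32, 6 rose and 11 fell with NH4Cl in the blocked model (all genes 16.1% and 15.0%), and 0 rose and 2 fell without it (all genes 6.14% in both directions). The protease MMP7 fell (-0.61, adjusted p = 6.8e-05 with the block), as did the chemokine CXCL8 (-0.60, adjusted p = 0.017 without the block) and ANXA1, a phospholipid-binding protein (-0.44, adjusted p = 3.2e-05 with the block). The other gene past the threshold without the block was the protease inhibitor TIMP1 (-0.19, adjusted p = 0.029), named after its values were seen. HBEGF, a ligand of EGFR, had the largest difference of this list with TGF-β (0.16, higher in 5 of 6 pairs, adjusted p = 0.89 with the block). The median log2 fold change of the AP-1 targets was -0.10. Several genes stand in more than 1 list.

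**Figure D5:**
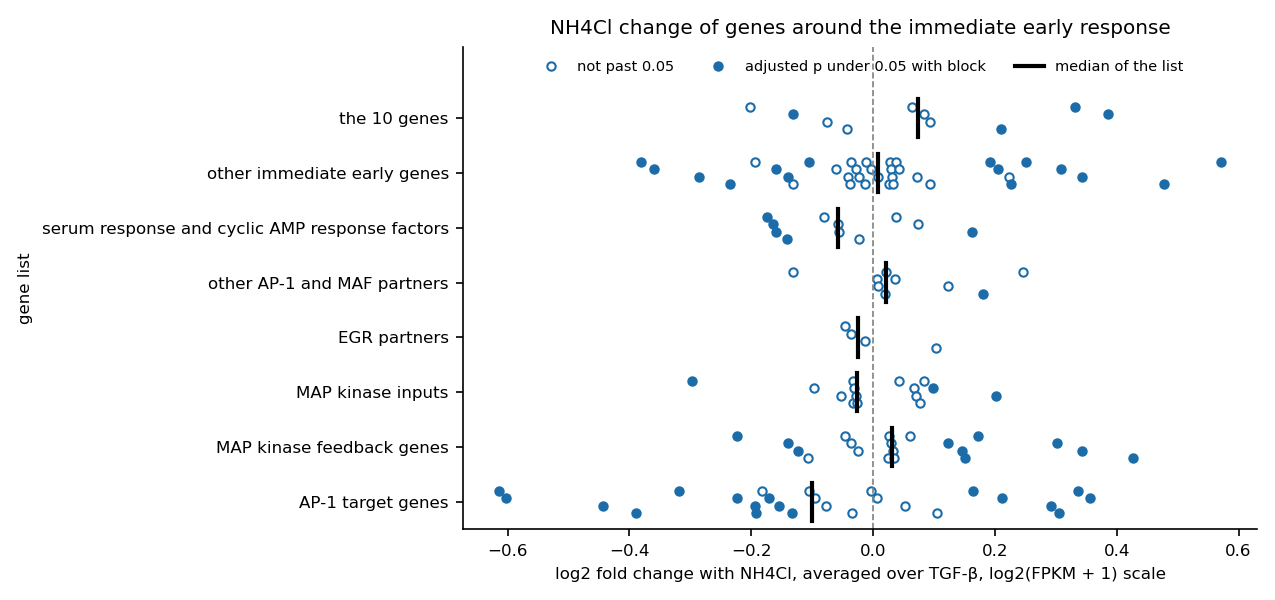
Log2 fold change with NH4Cl, averaged over TGF-β (log2(FPKM + 1) scale), of every gene tested in 8 lists, filled where the adjusted p is under 0.05 in the model with the replicate block, with a black bar at each list's median. The AP-1 target genes reach from -0.61 (MMP7) upwards with a median of -0.10, and the 10 genes have a median of 0.07.

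Genes often used as references also moved. Of 12 housekeeping genes, 3 rose and 2 fell with NH4Cl in the blocked model, and ACTB was the 1 gene past the threshold without the block (-0.22, adjusted p = 0.020). GAPDH fell by 0.20 on the log2 scale and B2M rose by 0.29 (adjusted p = 0.00022 and 0.0011 with the block), so the changes of FOS and FOSB exceeded these in size and those of JUNB and FOSL1 did not exceed that of B2M. Of the epithelial markers, 4 rose and 2 fell with the block, among them KRT19 (-0.34, adjusted p = 1.2e-05) and CDH1 (-0.18, adjusted p = 0.0041), and EPCAM rose without it (0.15, adjusted p = 0.045). Of the 3 markers of other cell types tested, 2 rose with NH4Cl in the blocked model. They were the vessel gene VWF (0.49, adjusted p = 0.00016) and the muscle gene DES (0.38, adjusted p = 0.0011), and DES passed without the block (adjusted p = 0.030). DES averaged 0.959 FPKM without NH4Cl and 1.54 with it, so its rise brought it past the filter of 1 FPKM. The liver gene ALB stayed under the filter and went the other way. Its mean was 0.957 FPKM in control libraries and 0.577 in NH4Cl libraries. It was 0.905 FPKM in TGF-β libraries and 0.590 in NH4Cl-TGF-β libraries. The count of markers that rose therefore depended in part on the filter, and untested markers were not counted by direction. In these bulk samples, fewer cells expressing a gene and less RNA per cell cannot be told apart.

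The genes most like a member over the 12 libraries, after the mean of each replicate number was subtracted, were found by Pearson's r as a description. For FOS they were the MAP kinase phosphatase gene DUSP1 (r = 0.96), the secreted trefoil factor TFF3 (0.95) and the homeobox gene DLX6 (0.95). For JUN they were GAST (0.94), ARRB2 (0.92) and SEL1L (0.92), and for EGR1 EHBP1 (0.93), ARFGEF1 (0.92) and FAM118A (0.90). For FOSL1 they were LY6G6C (0.99), ADNP2 (0.97) and CNN2 (0.95). LY6G6C had 2.88 FPKM in control cells and 1.42 with NH4Cl, and DUSP1 9.60 and 12.6 FPKM. Between members, r was highest for FOSL2 with JUN (0.85) and FOS with FOSB (0.83) and lowest for FOS with FOSL1 (-0.62). The libraries share treatment groups, so these values are not independent of the comparisons above.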

How the data were processed

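RNA sequencing of HCT116 cells gave 12 libraries, grouped by their labels into 4 groups of 3. The authors deposited FPKM per gene. The study's methods name HTSeq for counting and DESeq2 for the comparison, whereas the submitters' processing notes name Trimmomatic 0.36, STAR 2.5.2b, featureCounts of Subread 1.5.2 and GRCh38. With exon lengths of GENCODE 29, 100.0% of low FPKM values were whole reads (tolerance 0.05 reads), which gave the depth per library.

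Values were changed to log2(FPKM + 1). Genes averaging 1 FPKM or more (12341) were fitted with limma 3.58.1 in R 4.3.3 (4 group means, intensity trend, two-sided), and p-values were adjusted by Benjamini-Hochberg over all genes tested in each of 8 comparisons. Calls used a threshold of 0.05. Tables and plots were made with Python 3.11.15, pandas 2.3.3 and matplotlib 3.10.9.

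Deviations from group means correlated in each of the 18 same-numbered library pairs (r = 0.349 to 0.774). The values were 0.702 to 0.774 for number 3 and 0.349 to 0.533 for numbers 1 and 2. Deviations cancel out within a group, so a replicate 3 that stands apart also makes those of numbers 1 and 2 correlate. Differently numbered libraries were not compared, so whether numbers 1 and 2 are paired was not tested. The pairing was taken from these correlations, since no source says what a number stands for. The replicate block is therefore printed beside results that it changes.

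The members and lists were chosen with earlier results of these data known. Beside the members, genes were named by rule: in each list the 3 with the largest change with NH4Cl and the 2 with TGF-β, of which part is printed, and the 3 most like FOS, JUN, EGR1 and FOSL1. Alternatives were another pseudocount, other filters, scaling, centring, no trend, a fold threshold, fewer groups and left-out libraries.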

Additional observations from a re-analysis of the deposited data

How the results depend on the processing

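Without the block, 0 of 10 genes were called in each of the 8 comparisons, and this held with a pseudocount of 0.1, no filter, a mean FPKM of at least 5 (which leaves out FOSB and EGR3), scaling to the same sum, centring, no intensity trend, a further threshold of 0.5 on the log2 fold change, and each library left out, and in the 5 comparisons of 2 groups with only those groups fitted. The replicate block gave 4 calls for NH4Cl averaged over TGF-β, 1 for NH4Cl against control, 3 for NH4Cl-TGF-β against TGF-β and 2 for NH4Cl-TGF-β against control, and changed no other call of a member. With replicates 1 and 2 only, chosen after seeing the data, 1 gene (FOSL1) was called for NH4Cl averaged and 1 (FOSL1) for both agents against control. With the block, leaving out 1 library or 1 replicate number gave 3 to 5 calls for NH4Cl averaged, 0 to 2 for NH4Cl against control, 0 to 3 for NH4Cl-TGF-β against TGF-β and 0 to 3 for NH4Cl-TGF-β against control. Shares of all genes are given for the full fits only, so the counts with libraries left out stand without one. Some of the omissions with the block also brought JUN, JUND, FOSL2 or IER2 past the threshold for NH4Cl averaged. Scaling to the same sum with the block, also chosen after seeing the data, left 1 call for NH4Cl-TGF-β against control.

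These log2 fold changes changed sign when a library or replicate number was left out, most of them near 0. For NH4Cl averaged, the log2 fold changes without the block ran from -0.282 to 0.101 for FOSL2, -0.142 to 0.0337 for EGR1, -0.102 to 0.223 for EGR3 and -0.00667 to 0.111 for IER2, and with it from -0.182 to 0.146 for EGR1 and -0.000571 to 0.148 for IER2. For TGF-β averaged they ran without the block from -0.372 to 0.0469 for FOSB, -0.0619 to 0.0328 for FOSL1, -0.163 to 0.208 for FOSL2, -0.0638 to 0.0838 for JUN, -0.0366 to 0.0990 for JUND, -0.205 to 0.1102 for EGR3 and -0.0180 to 0.117 for IER2. With the block these were -0.0399 to 0.0281 for FOSL1, -0.0116 to 0.0819 for FOSL2, -0.0538 to 0.0612 for JUN and -0.110 to 0.0886 for EGR3. With replicates 1 and 2 only, IER2 had -0.000571 for NH4Cl, and FOSL2 -0.0116 and JUN -0.0427 for TGF-β. The interaction of JUND ran from -0.0397 to 0.249, HBEGF with TGF-β from -0.0451 to 0.311, and FOSB in NH4Cl-TGF-β against TGF-β from -0.109 to 0.809, where the group without replicate 3 lacks the library in which FOSB is high. No omission brought a call in the ranges without the block, and in those with it only IER2 with NH4Cl passed, without replicate number 1 (adjusted p = 0.035). The cause of the other changes was not tested.

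The calls without the block of EPCAM, NR4A2, DUSP16, KLF10, TIMP1, DES, ACTB and CXCL8 were lost under 15, 11, 11, 9, 9, 9, 7 and 5 alternatives, and all passed with the block. With 3 libraries a group, the blocked 95% intervals of members reached from 0.062 to 0.24 either side of an averaged log2 fold change. Calls used adjusted p-values, so changes of that size or larger could also be missed. JUNB with TGF-β had 0.28 (95% interval 0.13 to 0.42) and was not called (limma with the block, adjusted p = 0.66). At least 71 reads per member and library bound the counting error only.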
